A study of Saccharomyces cerevisiae with 23 samples.

Results

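The data described here follow Cyc8-4KtoR budding yeast between 30 and 60 min of hyperosmotic stress in 1.2 M sorbitol. Cyc8-4KtoR cells carry CYC8(K735R,K736R,K738R,K748R), in which 4 lysines of Cyc8 are arginines. The paper reports that these substitutions together strongly reduced the attachment of the small protein SUMO to Cyc8 in this stress. Members were chosen by strain and time alone, which gave 4 arrays of 23 in the series, 2 at 60 min and 2 at 30 min, 1 of each from replicates A and B. The difference reported is the log2 level at 60 min minus that at 30 min within the same replicate, averaged over both replicates. The same difference in Tup1-K270R cells, whose corepressor subunit Tup1 lacks its SUMO acceptor lysine, and in wild-type cells is used for comparison, with 4 arrays each. A strain with both mutant proteins and the 0 min arrays make up most of the rest.

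All strains were MATa derivatives of BY4741 (his3, leu2, met15 and ura3 deletions) with a His- and FLAG-tagged SMT3, the SUMO gene, at its own locus. In Cyc8-4KtoR cells the mutant CYC8 was put back into a cyc8 deletion with a LEU2 marker and wild-type TUP1 into a tup1 deletion with a URA3 marker. The wild-type strain had both genes put back unmutated in the same way, and Tup1-K270R cells carried the K270R allele of TUP1 beside unmutated CYC8. Replicates A and B were isolates from separate transformations, grown in complete medium and sampled at 0, 30 and 60 min, so each time series comes from 1 culture. Two-color Agilent arrays set each sample against wild-type cells at 0 min of the same replicate, with the sample in Cy3 in A and in Cy5 in B. A level is therefore the log2 ratio of a sample to unstressed wild type, and the reference and the dye cancel in a difference within a replicate.

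Cyc8 and Tup1 form a conserved corepressor complex that binds no DNA by itself. DNA-binding repressors such as Mig1, Sko1, Rox1 and Nrg1 bring it to genes for glucose use, osmotic stress, hypoxia and mating type. In hyperosmotic stress the kinase Hog1 turns Sko1-bound Tup1-Cyc8 from a repressor to an activating platform, glycerol is made as an osmolyte, and growth genes are shut down for a time. As cells regain volume, Hog1 is switched off and growth genes return. Neither Hog1 activity nor cell volume was measured on these arrays.

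Between 96.6% and 99.3% of spots on the 4 arrays were well above background in the sample's channel. CYC8 itself had log2 levels of 0.91 and 0.94 at 0 min, 0.79 and 0.80 at 30 min and 0.65 and 0.89 at 60 min in replicates A and B. Its difference of -0.02 between 60 and 30 min did not pass the test (adjusted p = 0.87, limma with Benjamini-Hochberg adjustment), and an expression level cannot check a lysine substitution. CYC8 thus lay above unstressed wild type in both replicates before stress, as did LEU2, the marker beside it, at 1.23 and 0.84 at 0 min. Whether the dose of the allele differed between the strains was not tested. TUP1 stood at -0.12 in A and 1.01 in B at 60 min, and at -0.43 in A and 0.66 in B at 30 min. URA3, the marker beside TUP1, was likewise higher in B than in A, at 0.67 against -1.03 at 60 min and at -0.23 against -1.80 at 30 min. These replicate differences were present at 0 min too, and within each replicate TUP1 was higher at 60 than at 30 min by a mean of 0.33 (adjusted p = 0.0087, limma). All 7 a-cell markers were well above background on the 4 arrays, as were 3 of 4 alpha-cell markers, so the arrays do not separate the mating types by detection.

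Most of the transcriptome moved between 30 and 60 min in Cyc8-4KtoR cells. Of 6129 probes tested, 66.4% passed the test at an adjusted p under 0.05, 1862 of them higher at 60 min (30.4%) and 2208 lower (36.0%). Most listed genes for ribosome assembly and for G1/S and G2/M were higher at 60 min, and most listed genes of reserve carbohydrates and glucose repression were lower. The counts given for each gene list stand beside these shares of 30.4% higher and 36.0% lower over all probes. The cutoff of the study's methods, 1.57-fold or 0.65 on the log2 scale, was passed in both replicates by 746 probes that were higher (12.2%) and 881 that were lower (14.4%). The authors' own log ratios, which contain other normalization steps, gave 712 higher and 761 lower calls. The test takes its spread from all strains, and with the double mutant's replicate B read by its source names, which exchange 30 and 60 min against its titles, it gave 0 calls, compared with 1759 higher and 2092 lower without that strain.

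Both replicates gave similar differences. Over the 6129 probes the differences of A and B correlated at r = 0.922 and rho = 0.915, a description over genes of 2 cultures that share no sample, and 88.8% of probes had the same sign. The spread of the differences was 0.728 (SD over probes) in A and 0.852 in B. Replicate A's arrays lay on separate slides and replicate B's on 1 slide. Replicate B alone gave 1520 higher and 1820 lower calls in a fit that took its spread from the other cultures.

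**Figure D1:**
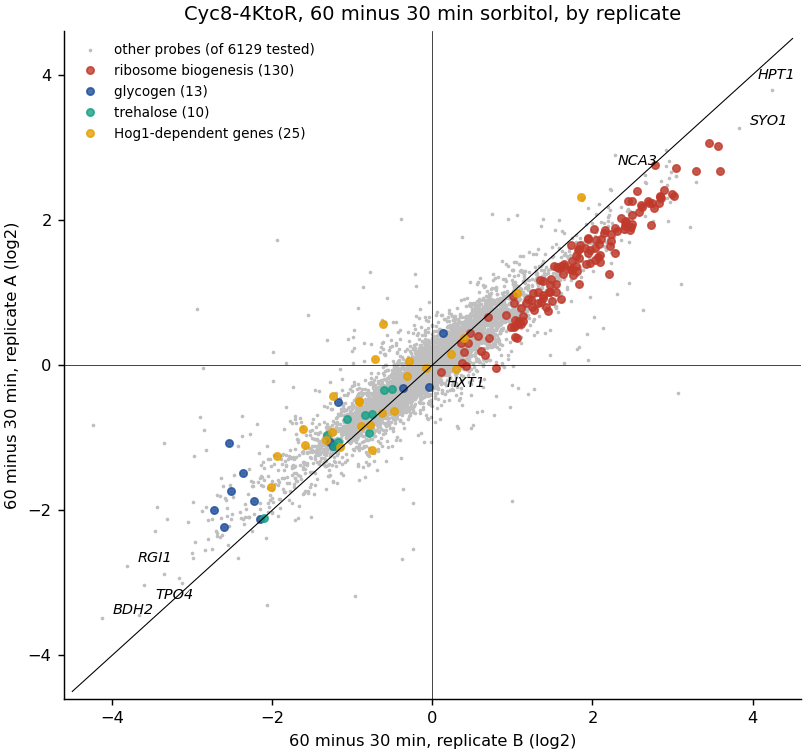
Log2 difference between 60 and 30 min of sorbitol in Cyc8-4KtoR cells, replicate A (y axis) against replicate B (x axis), 1 point for each of 6129 probes. Points lie along the diagonal (r = 0.922), with HPT1 the highest and BDH2 the lowest by mean.

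Levels at 60 min lay closer to the unstressed state of the same strain. Set against their own 0 min levels, the log2 levels of all probes had an SD of 0.910 at 30 min and 0.567 at 60 min. At 30 min 2202 probes were higher and 2032 lower than at 0 min, and at 60 min 39.0% of probes still differed, 1251 higher (20.4%) and 1139 lower (18.6%). These comparisons share arrays with the difference between 60 and 30 min and are given side by side only. Of the probes higher at 60 than at 30 min, 1147 did not differ from 0 min by the test at 60 min, and the same held for 1256 of those lower.

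Ribosome biogenesis factors were nearly all higher at 60 min. Of 130 measured genes for factors that process ribosomal RNA and assemble subunits, 125 were higher at 60 min, none were lower and 5 did not pass the test. Their median log2 difference was 1.58, against -0.05 over all probes, with 1.38 in A and 1.79 in B, and 108 passed the 0.65 cutoff in both replicates. Their median log2 level was 0.05 at 0 min, -1.24 at 30 min and 0.37 at 60 min. At 60 min 32 of the 130 were higher than at 0 min and 2 were lower.

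The largest rise of all named genes was in HPT1, the purine salvage enzyme hypoxanthine-guanine phosphoribosyltransferase. Its log2 level was -0.43 in A and 0.72 in B at 60 min, against -4.23 in A and -3.53 in B at 30 min. The times did not overlap, and the mean difference was 4.02 ± 0.32 (SD, n = 2), or 16.2-fold (adjusted p = 5.4e-07, limma). SYO1, the chaperone that carries ribosomal proteins of the 5S particle into the nucleus, reached 0.71 and 1.51 at 60 min, against -2.55 and -2.32 at 30 min. The rise of SYO1 was 11.7-fold. NSR1, the yeast nucleolin needed for rRNA processing, had levels of 0.73 and 1.43 at 60 min and of -2.33 and -2.03 at 30 min, a 9.57-fold rise. Both SYO1 and NSR1 ended above their own 0 min levels, by 1.00 and 0.83 on the log2 scale (adjusted p = 0.0020 and 0.0026, limma).

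Others among the 15 largest rises act in the same process. RRS1, which helps bring the 5S particle into the large subunit, rose by 3.29, and DHR2, a nucleolar helicase of the small-subunit pathway, by 3.13. ALB1, RLP24, MRT4 and BRX1 serve large-subunit assembly and EFG1 serves 18S rRNA maturation, and these 5 rose by between 2.77 and 2.99. TOD6, a Myb-type repressor of ribosome biogenesis genes, was also among them. Its levels were 0.76 and 1.41 at 60 min, against -1.76 and -1.88 at 30 min. NRP1, a putative RNA-binding protein, and the open reading frame YGR272C each rose by 2.83. YGR272C had levels of -2.60 and -2.21 at 30 min, close to the -2.71 and -2.13 of EFG1. Whether their probes read the same transcript was not tested.

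NCA3, a SUN-family gene whose relatives act in the cell wall and septum, followed another course. Its levels were 0.41 and 0.22 at 0 min, 0.59 and 0.55 at 30 min and 3.25 and 3.53 at 60 min. NCA3 thus lay near its start at 30 min in both replicates and rose 7.07-fold by 60 min.

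RNA polymerase I and III subunits moved with the biogenesis factors. Of 27 genes, 21 were higher at 60 min, 1 was lower and 5 did not pass, with a median difference of 1.42. RRN11, a subunit of the core factor that recruits RNA polymerase I, had levels of 0.47 and 0.63 at 60 min and of -2.50 and -2.29 at 30 min, a difference of 2.94 ± 0.03 (SD, n = 2). RPC19, a subunit shared by both polymerases, rose by 2.30 and RPA12, of polymerase I, by 2.27. Among 35 translation factors 23 were higher and 3 lower, with a median of 0.52, and the initiation factor 3 subunit NIP1 rose by 1.91.

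Cytosolic ribosomal protein genes did not share this rise as a group. Of 137 measured, 50 were higher at 60 min, 13 were lower and 74 did not pass the test, and the median difference was 0.12. Their median log2 level was 0.02 at 0 min, -0.38 at 30 min and -0.17 at 60 min. At 30 min 98 of the 137 were below their own 0 min level, and 51 were at 60 min. RPS9A rose the most, with levels of 0.44 and 0.61 at 60 min and of -1.74 and -1.59 at 30 min, and RPL18B, RPL7B and RPL27B rose by 1.73, 1.53 and 1.45. Many of these genes have near-identical copies, so a probe can read both. Of 64 mitochondrial ribosomal protein genes, 19 were higher (29.7%) and 20 lower (31.25%), with a median of -0.03. These shares were near the 30.4% and 36.0% over all probes.

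**Figure D2:**
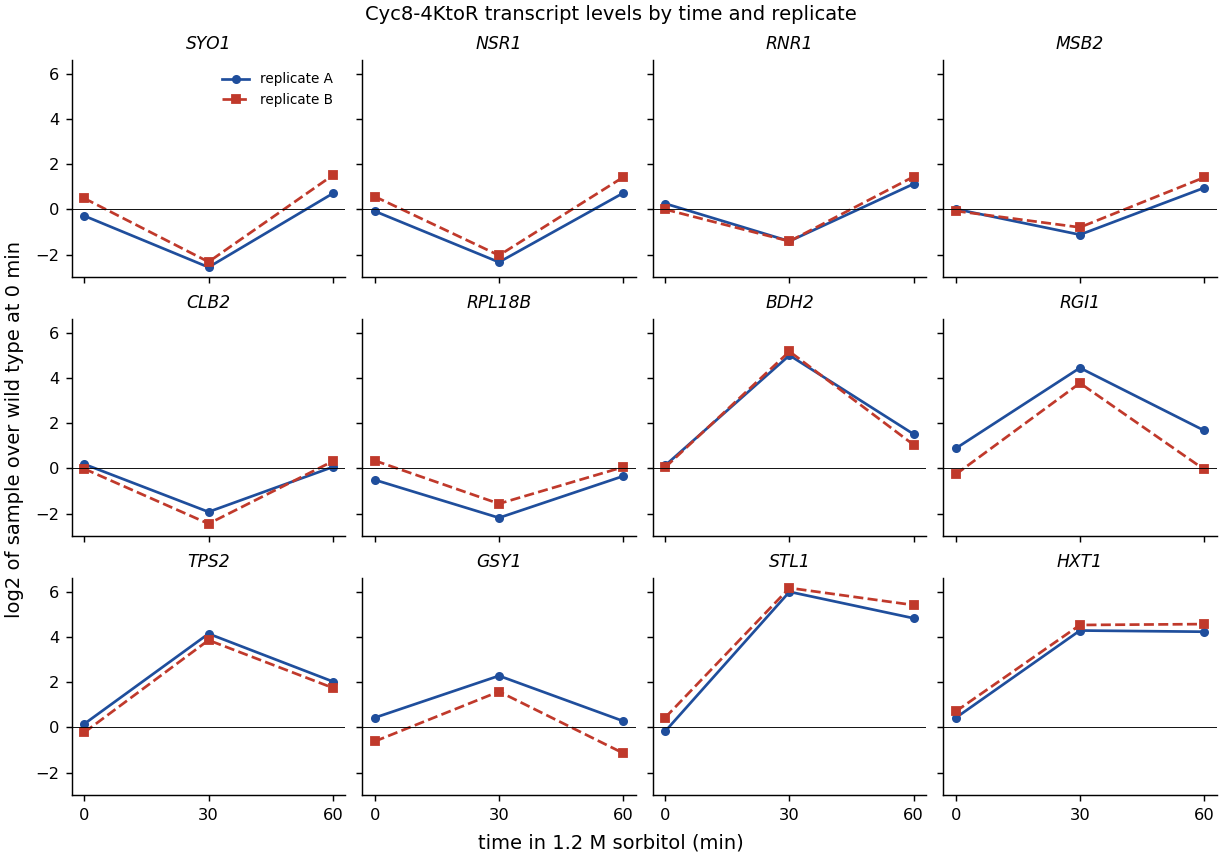
Log2 level (sample over unstressed wild type, y axis) at 0, 30 and 60 min of sorbitol (x axis) in Cyc8-4KtoR cells, with replicates A and B drawn separately for single genes. SYO1 dips to -2.55 and -2.32 at 30 min and lies at 0.71 and 1.51 at 60 min, against -0.28 and 0.49 at 0 min. BDH2 peaks at 5.0 and 5.17 at 30 min.

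Cell cycle genes were higher at 60 min. Of 32 G1/S genes 24 were higher and none lower, with a median difference of 0.55. RNR1, the large subunit of ribonucleotide reductase, had levels of 1.13 and 1.45 at 60 min, against -1.4 and -1.41 at 30 min. It rose 6.48-fold and ended 1.16 above its own 0 min level on the log2 scale (adjusted p = 0.00047, limma). The G1 cyclin gene CLN1 rose by 1.75 and its relative CLN2 by 1.05. Of 27 G2/M genes 17 were higher and 4 lower, and CLB2, the main mitotic cyclin, had levels of 0.06 and 0.32 at 60 min and of -1.92 and -2.44 at 30 min. In a bulk culture, fewer cells of a cycle stage and less RNA per cell cannot be told apart.

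Genes of daughter cell separation came back only in part. Of 19, 11 were higher at 60 than at 30 min and 5 were lower, with a median of 0.47, but 14 of the 19 were still below their own 0 min level at 60 min and none were above it. DSE4, a daughter-specific glucanase, had levels of -0.46 and -0.16 at 0 min, -2.97 and -2.75 at 30 min and -1.28 and -0.76 at 60 min. AMN1, another gene of this list, was likewise at -1.14 and -0.83 at 60 min and at -2.72 and -2.62 at 30 min. FAR1, the cyclin-dependent kinase inhibitor of the pheromone response, rose by 2.10 and reached -0.06 and -0.23. Among 9 histone genes 1 was lower at 60 than at 30 min and none were higher. At 60 min 8 of the 9 were below their own 0 min level, compared with 4 at 30 min. Their median log2 level was 0.09 at 0 min, -0.23 at 30 min and -0.52 at 60 min.

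Cell wall genes split. Of 37 measured, 15 were higher at 60 min and 10 were lower, with a median of 0.17. EXG1, the major exo-glucanase of the wall, rose 6.24-fold, with levels of 1.27 and 0.91 at 60 min and of -1.35 and -1.75 at 30 min. The glucanase-like SCW10 rose by 2.06 and the chitin transglycosylase gene UTR2 by 1.92. UTR2 stayed below 0, at -0.59 and -0.17 at 60 min, against -2.34 and -2.26 at 30 min.

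Proteasome subunits were higher at 60 min while their transcription factor was lower. Of 33 genes listed, 24 were higher, with a median of 0.41, and the 1 lower gene was RPN4, the activator of the rest. RPN4 had levels of 0.17 and 0.00 at 0 min, 2.59 and 2.34 at 30 min and 1.1 and 0.81 at 60 min. The catalytic-core subunit gene PRE1 rose by 1.01, with levels of 0.59 and 0.45 at 60 min against -0.67 and -0.31 at 30 min. At 60 min 31 of the 33 were above their own 0 min level, compared with 8 at 30 min.

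The 15 named genes with the largest falls all stood at 1.13 or more on the log2 scale at 30 min in both replicates. BDH2, a putative medium-chain alcohol dehydrogenase next to BDH1, had levels of 1.51 and 1.04 at 60 min, against 5.0 and 5.17 at 30 min. The difference of -3.81 ± 0.45 (SD, n = 2) left 0.0714 of the 30 min level (adjusted p = 1.4e-07, limma). RGI1, a gene of respiratory energy metabolism, differed more between the replicates, at 1.68 in A and -0.04 in B at 60 min, against 4.45 in A and 3.77 in B at 30 min. TPO4, a polyamine exporter, passed below its start: 0.36 and -0.02 at 0 min, 1.70 and 1.13 at 30 min and -1.33 and -2.47 at 60 min.

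Several of the 15 largest falls encode regulators. MRK1, a kinase of the GSK-3 family, fell by 3.12, SPL2, which restrains low-affinity phosphate uptake, by 3.07, and PRR2, a protein kinase, by 2.87. YAK1, a kinase that restrains growth when glucose runs short, had levels of -0.74 and -1.61 at 60 min, against 1.70 and 1.35 at 30 min. SYM1, a mitochondrial membrane protein needed for growth on ethanol in heat, fell by 2.80. The open reading frames YDL026W, YLR177W, YOL153C, YPL247C and YKL066W fell, with differences between -3.56 and -2.69. YKL066W stood at 3.05 in B and 0.40 in A at 0 min, so its replicates disagreed before stress.

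Reserve carbohydrate genes fell together. All 10 trehalose genes were lower at 60 min, with a median difference of -0.88, and 9 of them were still above their own 0 min level. TPS2, trehalose-6-phosphate phosphatase, had levels of 2.03 and 1.75 at 60 min, against 4.14 and 3.86 at 30 min. That left 0.232 of the 30 min level (adjusted p = 5.8e-06, limma). TPS1, the synthase, fell by 1.17 and the regulatory subunit TSL1 by 1.12, and the vacuolar trehalase ATH1 by 1.14. The breakdown enzymes thus fell alongside those of synthesis.

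Of 13 glycogen genes 11 were lower and 1 higher, with a median of -1.80 (-1.11 in A and -2.15 in B). GLC3, the branching enzyme, had levels of 1.63 and 0.91 at 60 min and of 3.86 and 3.52 at 30 min. GSY1, a glycogen synthase, stood at 0.28 in A and -1.14 in B at 60 min, against 2.28 in A and 1.59 in B at 30 min, a difference of -2.36 ± 0.51 (SD, n = 2). GLG1, which primes glycogen, fell by 2.13, and PIG2, a putative targeting subunit of the Glc7 phosphatase, by 2.14. At 60 min 5 of the 13 were above their own 0 min level, compared with 12 at 30 min. The gene higher at 60 min was PIG1, another such subunit, at 0.29.

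Glucose-repressed genes were mostly lower. Of 45 measured, 30 were lower at 60 min, 3 were higher and 12 did not pass, with a median of -0.84. Their median log2 level was 0.12 at 0 min, 1.84 at 30 min and 0.58 at 60 min, and 23 of the 45 were still above their own 0 min level at 60 min. GAL2, the galactose permease, had levels of 1.04 and 1.42 at 60 min, against 3.70 and 4.41 at 30 min. JEN1, the lactate permease, fell by 2.10 and CAT8, the activator of gluconeogenic genes, by 1.83. The 3 higher genes were ADH2, the ethanol-oxidizing alcohol dehydrogenase, GAL3, the galactose sensor, and YAT1, a carnitine acetyltransferase, with differences of 0.33, 0.49 and 0.82.

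Hexose transporters and their sensors ran in both directions. Of 21 genes, 12 were lower, 3 higher and 6 did not pass, with a median of -0.61, and 18 of the 21 were well above background on all 4 arrays. HXT4 had levels of -0.17 in A and -1.26 in B at 60 min, against 1.79 in A and 2.18 in B at 30 min, a fall of 2.70. HXT5, a transporter of slow growth and stress, fell by 1.79 but remained at 3.90 and 3.47. HXT3, a low-affinity transporter, rose by 1.15.

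HXT1, the low-affinity transporter of high glucose, gave overlapping levels at both times. It stood at 0.42 and 0.71 at 0 min, 4.29 and 4.53 at 30 min and 4.23 and 4.57 at 60 min. Its difference between 60 and 30 min was -0.01 ± 0.07 (SD, n = 2; adjusted p = 0.98, limma). The high-affinity transporters HXT6 and HXT7 are near-identical, so their probes can read each other's transcript. HXT7 stood at 1.38 in A and -1.21 in B at 60 min, against 2.10 in A and 1.69 in B at 30 min, and HXT6 at 1.20 in A and -1.25 in B, against 2.09 in A and 1.60 in B. Both fell, by 1.81 and 1.87 on average, with most of the fall in B.

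Chaperone genes moved in both directions, as did the probes as a whole. Of 29 measured, 14 were lower at 60 min (48.3%, against 36.0% over all probes). Another 8 were higher (27.6%, near the 30.4% over all probes). The list median was -0.14, and 23 of the 29 were above their own 0 min level at 60 min. HSP42, a small heat shock protein, had levels of 2.01 and 0.73 at 60 min and of 3.83 and 3.23 at 30 min. HSP104, the disaggregase, fell by 1.24 and the mitochondrial J protein MDJ1 by 1.26. YDJ1, the main cytosolic J protein, went the other way and rose 3.16-fold, with levels of 1.34 and 1.16 at 60 min against -0.27 and -0.54 at 30 min. The constitutive Hsp70 gene SSA2 rose by 0.77 and the mitochondrial Hsp70 gene SSC1 by 0.97.

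Hog1-dependent osmostress genes remained mostly above their own 0 min levels. Of 25 measured, 12 were lower at 60 than at 30 min (48.0%, against 36.0% over all probes), 3 were higher and 10 did not pass, with a median of -0.71. Their median log2 level was 0.19 at 0 min, 3.43 at 30 min and 2.90 at 60 min, and 21 of the 25 were above their own 0 min level at 60 min, compared with 24 at 30 min. CTT1, the cytosolic catalase, stood at 4.36 and 4.59 at 60 min and at 5.20 and 5.48 at 30 min, which left 0.547 of the 30 min level (adjusted p = 0.0076, limma). DCS2, a stress-induced regulator of mRNA decapping, fell by 1.85 and PNS1, a putative membrane transporter, by 1.60. HSP12, a membrane-protecting heat shock protein, was at 7.02 and 6.32 at 60 min and at 6.97 and 6.62 at 30 min, with overlapping times.

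Of 14 glycerol genes, 3 were higher at 60 min (21.4%, against 30.4% over all probes), 5 were lower (35.7%, against 36.0%) and 6 did not pass, with a median of -0.16. STL1, the glycerol proton symporter, had levels of 4.83 and 5.41 at 60 min, against 6.0 and 6.17 at 30 min, and GPD1, glycerol-3-phosphate dehydrogenase, 4.20 and 4.22, against 4.86 and 4.85. Neither difference passed the test (-0.96 and -0.65, adjusted p = 0.10 and 0.099, limma), although the times did not overlap. The glycerol phosphatase genes differed: GPP1 rose by 1.03, and GPP2 stood at 5.94 and 6.10 at 60 min against 5.99 and 5.81 at 30 min. DAK1, which detoxifies dihydroxyacetone, rose by 0.38, and GCY1, a putative glycerol dehydrogenase, fell by 1.34. CHA1, the serine deaminase, which is also on the osmostress list, rose 4.24-fold, with levels of 3.81 and 4.17 at 60 min and of 1.5 and 2.31 at 30 min.

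Of 27 osmosensing and Hog1 signalling genes, 7 were higher at 60 min (25.9%) and 11 were lower (40.7%), near the 30.4% and 36.0% over all probes, with a median of -0.14. The mucin-like sensor gene MSB2 had levels of 0.96 and 1.42 at 60 min, against -1.12 and -0.79 at 30 min, a rise of 2.14 ± 0.10 (SD, n = 2). The second mucin sensor, HKR1, rose by 1.00, and the membrane proteins SHO1 and SLN1 by 0.78 and 0.68. SSK1, the response regulator below Sln1, fell by 1.36, with levels of -0.37 and -0.49 at 60 min against 0.98 and 0.86 at 30 min. The stress transcription factor gene MSN2 fell by 1.12 and SKO1, for the repressor below Hog1, by 0.62, while HOG1 stood at -0.05 and -0.16 at 60 min and at 0.07 and 0.01 at 30 min, a difference that did not pass.

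Of 28 genes known from earlier work as Tup1-Cyc8 targets, 9 were higher at 60 min (32.1%, against 30.4% over all probes), 12 were lower (42.9%, against 36.0%) and 7 did not pass, with a median of -0.14. HXT4 and the spore wall gene SPS100 were among the lower, at differences of -2.70 and -1.18, as was ANB1, the hypoxic form of eIF5A, at -1.14. The a-specific genes STE2, the alpha-factor receptor, and MFA2, an a-factor precursor, were higher by 1.45 and 1.38. Of 7 a-cell markers 5 were higher (71.4%) and 1 was lower (14.3%), ASG7, which fell by 1.28. STE2 had levels of 0.88 and 0.53 at 60 min and of -0.72 and -0.78 at 30 min. The flocculin genes FLO1, FLO9 and FLO10 were higher by 0.41, 0.52 and 0.67, but their levels at 60 min lay between -0.41 and -0.05. These genes are repeated in the genome, so their probes can share transcripts.

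Of the 19 genes for Tup1, Cyc8 and the repressors that recruit them, 12 were lower at 60 min and 5 were higher, with a median of -0.57. CIN5, a bZIP factor of salt tolerance, had levels of 1.47 and 0.65 at 60 min, against 3.48 and 3.53 at 30 min. NRG1, a repressor of glucose-repressed genes, was at 1.92 in A and 0.58 in B at 60 min and at 3.43 in A and 3.06 in B at 30 min. RFX1, the repressor of DNA damage genes, fell by 1.39. MIG2 and MIG3, relatives of the glucose repressor Mig1, rose by 0.85 and 0.84, while MIG1 itself fell by 0.69.

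In the SUMO pathway 5 of 13 genes were lower (38.5%, near the 36.0% over all probes). Another 2 were higher (15.4%, against 30.4%), and the list median was -0.17. SLX5, a subunit of the ubiquitin ligase that targets sumoylated proteins, had levels of 0.11 and 0.02 at 60 min, against 1.87 and 1.57 at 30 min, and its partner SLX8 fell by 0.69. The SUMO protease gene ULP2 fell by 0.81. UBC9, the conjugating enzyme, and SMT3, SUMO itself, rose by 1.22 and 0.72. UBC9 stood at -0.19 and -0.29 at 60 min and at -1.60 and -1.31 at 30 min. The ligase gene SIZ1 was at -0.15 and 0.17 at 60 min and at 0.06 and -0.08 at 30 min, with overlapping times.

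In sulfur and methionine metabolism 19 of 34 genes were lower and 7 higher, with a median of -0.40. SAM2, S-adenosylmethionine synthetase, went below its start, at -0.21 and -0.23 at 0 min, -0.77 and -0.60 at 30 min and -2.87 and -2.88 at 60 min. Its paralog SAM1 fell by 1.27 and the methionine synthase gene MET6 by 1.56.

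Of 58 amino acid synthesis genes 18 were higher (31%) and 20 lower (34.5%), near the shares over all probes, with a median of 0.02. ILV5, of branched-chain synthesis, rose by 1.58, ASN1, asparagine synthetase, by 1.45, and ARG1, of arginine synthesis, fell by 1.4. Of 24 purine and one-carbon genes 13 were higher and 3 lower, with a median of 0.36. ADE4, the first enzyme of purine synthesis, rose 3.01-fold, with levels of 0.07 and 0.32 at 60 min and of -1.43 and -1.36 at 30 min.

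Among 21 glycolysis and fermentation genes 4 were higher and 9 lower, with a median of -0.21. ADH1, the main fermentative alcohol dehydrogenase, rose by 1.32 and the hexokinase gene HXK1 fell by 1.07. In respiration 16 of 43 genes were lower and 5 higher, in iron uptake 7 of 27 were lower and 12 higher, and in the phosphate regulon 9 of 26 were lower and 4 higher. The lower shares in respiration (37.2%) and the phosphate regulon (34.6%) were near the 36.0% over all probes. In iron uptake 44.4% were higher and 25.9% lower. FIT1, a cell wall mannoprotein that retains siderophore iron, fell by 2.15, whereas FTR1, the iron permease, rose by 1.70. Of 25 ergosterol genes 8 were higher and 3 lower, with ERG3, the sterol desaturase, up by 1.42, and of 24 peroxide and superoxide defence genes 7 were higher and 11 lower. The thiol peroxidase gene GPX2 was higher by 1.97, with levels of 1.44 and 2.01 at 60 min, against -0.52 and 0.02 at 30 min, and its relative GPX1 was lower by 1.14.

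**Figure D3:**
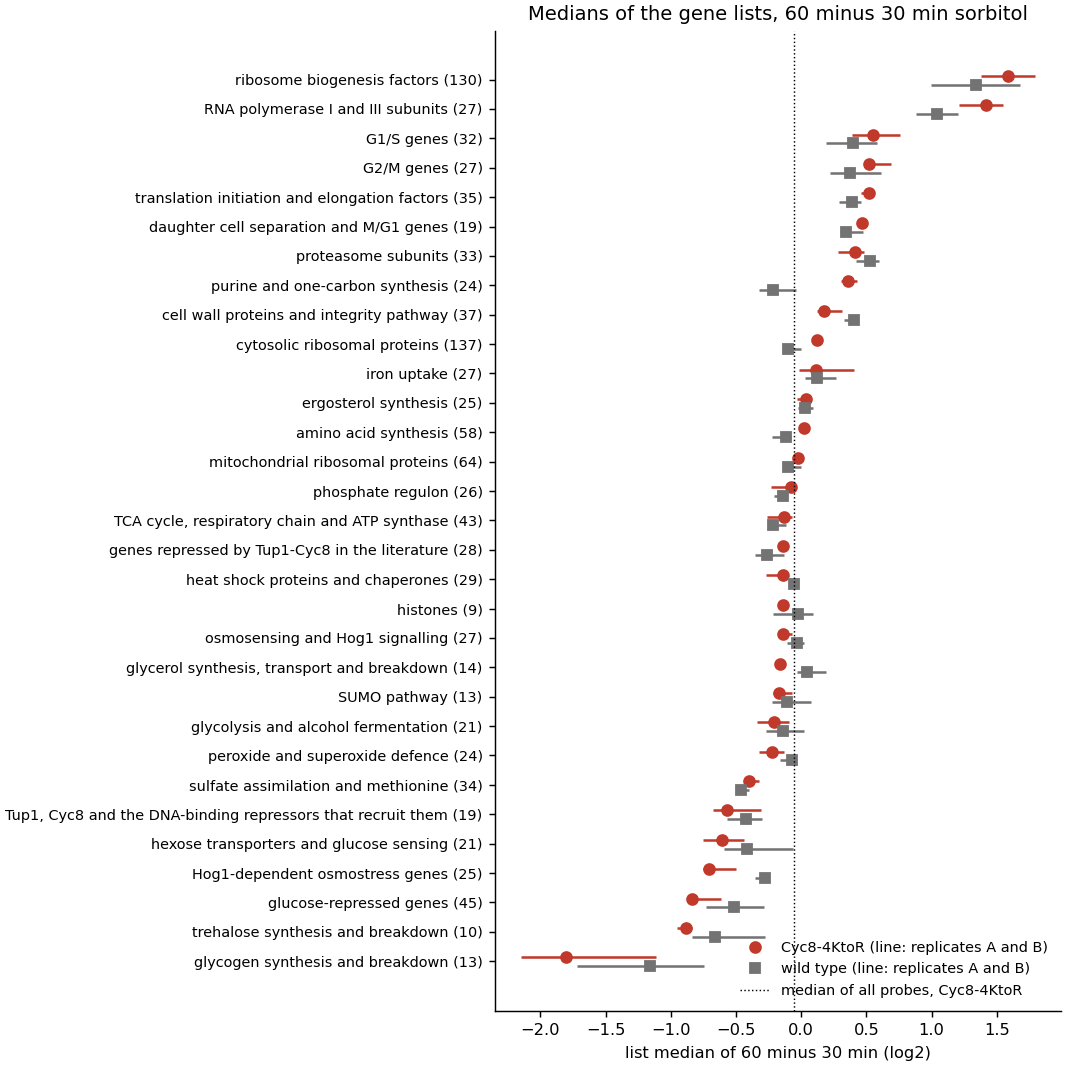
Median log2 difference between 60 and 30 min of sorbitol (x axis) for each gene list (y axis), in Cyc8-4KtoR cells above wild-type cells within each list, with lines joining the medians of replicates A and B and a dotted line at the median of all probes. Ribosome biogenesis lies farthest right (1.58 in Cyc8-4KtoR and 1.34 in wild type) and glycogen farthest left (-1.80 and -1.16).

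Wild-type cells moved widely over the same interval, and no probe separated Cyc8-4KtoR from wild type. In wild type 62.4% of probes passed the test, 1765 higher and 2058 lower. The difference between Cyc8-4KtoR and wild type in their 60 minus 30 min changes passed for 0 of 6129 probes (0%, limma with Benjamini-Hochberg adjustment), with the smallest adjusted p at 0.435. At an unadjusted p under 0.05 there were 631 probes (10.3%), 315 higher and 316 lower in Cyc8-4KtoR. That count became 1485 without wild-type replicate B, 292 without Cyc8-4KtoR replicate B and 81 with the authors' log ratios, and the unadjusted counts per list rest on it. With a median standard error of 0.148 on that difference, small differences were not detectable with 2 replicates a strain. Over probes, the changes of both strains correlated at r = 0.940 and rho = 0.925, with no sample in common. The SD of the changes was 0.775 in Cyc8-4KtoR cells and 0.693 in wild type.

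List medians are set side by side. Ribosome biogenesis stood at 1.58 in Cyc8-4KtoR and 1.34 in wild type, polymerase I and III subunits at 1.42 and 1.04, glycogen at -1.80 and -1.16, and Hog1-dependent genes at -0.71 and -0.28, in the same order of strains. Purine and one-carbon genes had medians of opposite sign, 0.36 in Cyc8-4KtoR (0.30 in A and 0.43 in B) and -0.22 in wild type (-0.33 in A and -0.04 in B). In wild type 5 of these 24 genes were higher and 11 lower, and 10 of the 24 differed between the strains at an unadjusted p under 0.05. Ribosomal protein genes also had medians of opposite sign, 0.12 in Cyc8-4KtoR (0.12 in A and 0.15 in B) and -0.10 in wild type (-0.13 in A and -0.0046 in B), with 47 of 137 at an unadjusted p under 0.05. None of these genes passed after adjustment.

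Single genes set the scale of what was and was not resolved. HXT1 differed by -0.01 between 60 and 30 min in Cyc8-4KtoR and by 0.96 in wild type, a gap of -0.97 (SE 0.28, adjusted p = 0.435, limma). TPS2 fell by 2.11 in Cyc8-4KtoR and by 1.16 in wild type, a gap of -0.95 (SE 0.28), and RPL18B rose by 1.73 and by 0.83, in the same order of strains, a gap of 0.90 (SE 0.20), with the same adjusted p. GSY1, HXT6 and HXT7 had gaps of -0.44, -0.10 and -0.03.

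**Figure D4:**
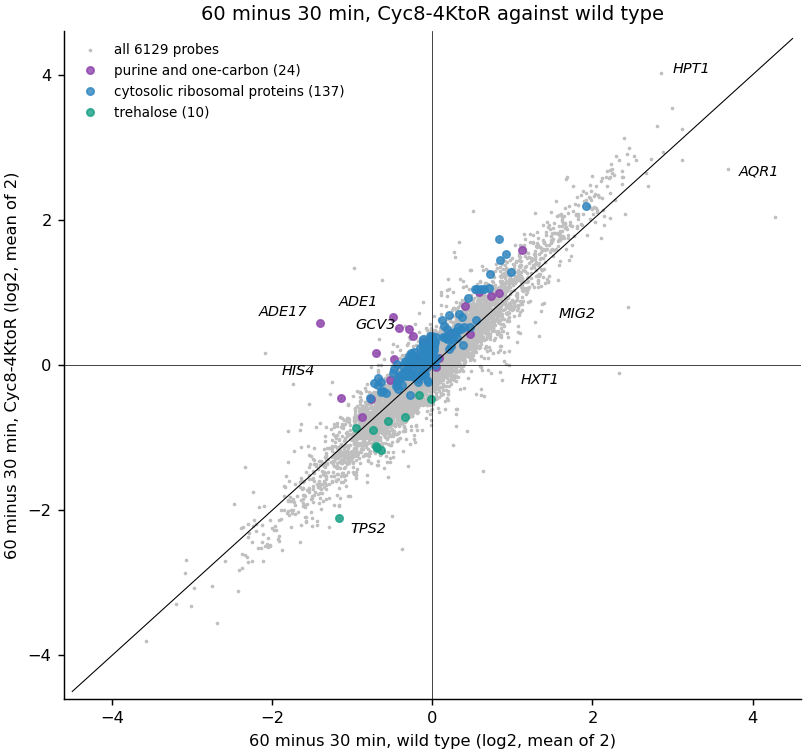
Log2 difference between 60 and 30 min of sorbitol in Cyc8-4KtoR cells (y axis) against that in wild-type cells (x axis), 1 point for each of 6129 probes, means of 2 replicates. Points follow the diagonal (r = 0.940), and 0 probes passed the test of the difference between the strains.

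Against Tup1-K270R cells, 8 probes differed in their 60 minus 30 min change (0.131%; 3 higher and 5 lower in Cyc8-4KtoR; limma with Benjamini-Hochberg adjustment). They were named after their values were seen. Replicates of the strains did not overlap for any of the 8, and the wild-type mean lay between the means of the mutants for each. The test that chose the 8 used the same values, so the lack of overlap adds no support. At an unadjusted p under 0.05 there were 132 higher and 162 lower probes. The authors' log ratios gave 0 such calls, and leaving out 1 replicate of either strain gave between 0 and 3.

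The 3 genes whose change was higher in Cyc8-4KtoR act in purine, histidine and glycine metabolism. ADE17, which completes the purine ring precursor IMP, changed by 0.60 and 0.55 in Cyc8-4KtoR, by -1.72 and -2.60 in Tup1-K270R and by -2.05 and -0.75 in wild type. The gap to Tup1-K270R was 2.74 (SE 0.36, adjusted p = 0.034, limma), although the change within Cyc8-4KtoR did not pass by itself (adjusted p = 0.068). The level of ADE17 in Cyc8-4KtoR differed between the replicates before stress, at -1.55 in A and -0.23 in B at 0 min. HIS4, of histidine synthesis, changed by -0.14 and -0.34 in Cyc8-4KtoR and by -1.37 and -2.01 in Tup1-K270R. In Cyc8-4KtoR HIS4 likewise stood at -1.71 in A and -0.54 in B at 0 min. GCV3, the lipoyl carrier of the glycine cleavage system, changed by 0.37 and 0.42 in Cyc8-4KtoR and by -0.47 and -0.42 in Tup1-K270R.

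The 5 genes whose change was lower in Cyc8-4KtoR include MIG1 and MIG2, which encode glucose repressors. MIG1 changed by -0.70 and -0.69 in Cyc8-4KtoR, by 0.20 and 0.09 in Tup1-K270R and by -0.30 and -0.45 in wild type. MIG2 rose by 0.83 and 0.87 in Cyc8-4KtoR and by 1.53 and 1.60 in Tup1-K270R. AQR1, a plasma membrane exporter of acids and amino acids, rose by 2.49 and 2.93 in Cyc8-4KtoR and by 4.38 and 4.45 in Tup1-K270R. SKS1, a kinase of the response to low glucose, and HAP4, the activator of respiratory genes, had gaps of -1.47 and -1.37.

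**Figure D5:**
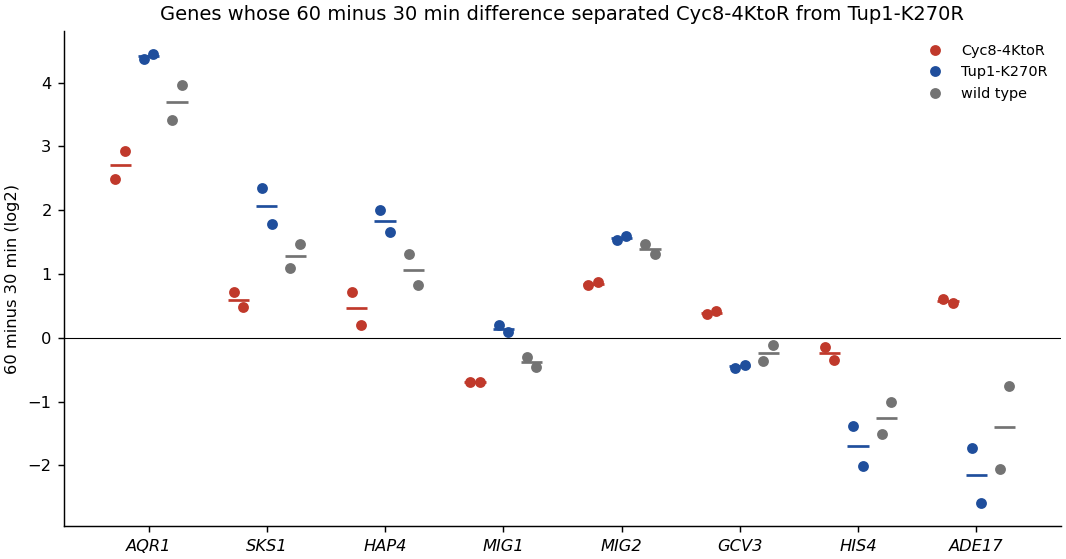
Log2 difference between 60 and 30 min of sorbitol (y axis) for the 8 genes that differed between Cyc8-4KtoR and Tup1-K270R cells, with wild type at the right of each gene 1 point per replicate and bars at the means. ADE17 lies at 0.60 and 0.55 in Cyc8-4KtoR and at -1.72 and -2.60 in Tup1-K270R.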

How the data were processed

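Each array carried 2 spots of 6256 probes with gene names of its design, of which 5756 could be tied to a systematic name of assembly R64. The authors extracted the arrays with Feature Extraction at default settings. The deposited spot intensities are background-subtracted signals of each channel. Dye normalization by the authors is already in the deposited log10 ratios (Cy5 to Cy3), and the deposited series matrix holds the same ratios as log2 values, with 0 columns left unused.

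Here log2 ratios of the background-subtracted intensities were loess-normalized within each array, without control and outlier spots, turned to sample over reference and averaged per probe. The 51 probes from YDR211W to YDR261C, which the methods name as an aneuploid region of 1 Tup1-K270R isolate, were left out, which left 6129. Tests used limma 3.58.1 in R 4.3.3 on 22 arrays of 11 groups, with 1 term for each of 8 cultures (7 residual degrees of freedom), eBayes and Benjamini-Hochberg adjustment at 0.05, and were tested on simulated data. Adjusted p-values in the text come from this fit and cover 2 isolates per strain. The number of arrays limits the precision.

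Culture terms were used because each isolate was sampled at all times. Deviations of the replicates at 30 and 60 min correlated at 0.510 in Cyc8-4KtoR, 0.527 in Tup1-K270R, 0.653 in the double mutant and 0.089 in wild type.

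Named genes are the 15 largest rises and falls past the test that were well above background and moved the same way in both replicates, up to 4 leading members and the called members of each list, and CYC8, TUP1, HXT1, HXT6, HXT7 and GSY1. Members and lists were chosen with earlier results of these data known. URA3, LEU2, list members that did not pass and the genes that differed from Tup1-K270R were named after their values were seen. Alternatives were the authors' log ratios, the series matrix, normexp on median signals, median centring, a background filter, other blocks, slides, left-out replicates, the double mutant left out or relabelled, and the region kept. Gene coordinates and sequences were not used here.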

Additional observations from a re-analysis of the deposited data

Results flagged for a closer look

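The change between 60 and 30 min differed between Cyc8-4KtoR and Tup1-K270R cells for 8 genes, by limma's test of the difference between strains with Benjamini-Hochberg adjustment. The differences, Cyc8-4KtoR minus Tup1-K270R on the log2 scale, were 2.74 for ADE17, 1.45 for HIS4 and 0.84 for GCV3, all positive. They were -1.71 for AQR1, -1.47 for SKS1, -1.37 for HAP4, -0.84 for MIG1 and -0.72 for MIG2. The double mutant, which carries both mutant proteins, changed by 0.42 for ADE17, -0.10 for HIS4, 0.23 for GCV3 and 2.71 for AQR1, and by 0.70 for SKS1, 0.71 for HAP4, -0.73 for MIG1 and 0.65 for MIG2. Its values rest on the array titles for replicate B, whose source names exchange the times.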

How the results depend on the processing

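The calls between 60 and 30 min in Cyc8-4KtoR, 1862 higher and 2208 lower, became 712 and 761 with the authors' log ratios and the same with the series matrix values. They became 0 and 0 when the double mutant's replicate B was read by its source names, with 2836 probes at an unadjusted p under 0.05. The 60 minus 30 min changes of the double mutant's replicates correlate at 0.952 by titles and at -0.952 by source names, over the 6129 probes. The other alternatives gave between 1389 and 1876 higher and between 1580 and 2227 lower calls, with 1389 to 1520 higher and 1580 to 1820 lower when a Cyc8-4KtoR replicate was left out. Without the replicate block (culture terms) there were 1512 higher and 1760 lower calls, and with the replicate block as sets A and B 1847 and 2184. Probes whose mean difference passed the 0.65 cutoff, 897 higher and 1076 lower, became 582 and 630 with normexp and loess on the median signals. Of the 4070 calls, 58 changed sign with the authors' log ratios and 58 with the series matrix values, 41 with normexp, 4 with median centring and 0 under the other alternatives. The cause was not tested.

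The 0 calls between Cyc8-4KtoR and wild type ranged from 0 to 7 with 1 replicate left out, with 1 without Cyc8-4KtoR replicate A and 7 without wild-type replicate B. The 8 calls between Cyc8-4KtoR and Tup1-K270R became 0 with the authors' log ratios, the series matrix, median centring, no replicate block, the slide as a fixed block or the exchanged labels. They became 1 with normexp, the slide as a random block or without the double mutant, 3 with the replicate block as sets A and B, 15 with only probes well above background, and from 0 to 3 with 1 replicate left out.

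Among 157 named genes, 24 lost their call with the authors' log ratios, 24 with the series matrix values and 145 with the exchanged labels. Normexp and the fit without the replicate block each cost 6 calls. The 5 named genes whose difference turned positive had not passed the test. CYC8 gave 0.078 with median centring and -0.13 to 0.093 with 1 replicate left out. HHF1, SAG1 and STE3 gave 0.079, 0.086 and 0.094 with the authors' log ratios and 0.079, 0.086 and 0.094 with the series matrix. HXT1 gave 0.0022 with the authors' log ratios, 0.00030 with normexp, 0.0025 with the series matrix, 0.0099 with median centring, 0.22 and 0.080 with the slide as a fixed and a random block, and -0.053 to 0.040 with 1 replicate left out.

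Only 2 isolates per strain, both read once per time, set the errors. Expression is relative to unstressed wild type, and a change in total RNA per cell is not seen.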

Other observations

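Some genes crossed their own 0 min level between 30 and 60 min in Cyc8-4KtoR cells. By limma with Benjamini-Hochberg adjustment, 217 probes were below their 0 min level at 30 min and above it at 60 min, and 195 were above it at 30 min and below it at 60 min. These comparisons share arrays.

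The genes named here were chosen after their values were seen. Of the first kind, PRM7, a pheromone-regulated membrane protein gene, stood at 0.97 and 0.13 at 0 min, 0.26 and -0.33 at 30 min and 2.14 and 1.93 at 60 min. JJJ3, a J protein of diphthamide synthesis, stood at -0.32 and 0.44, then -1.47 and -1.29, then 0.84 and 1.65 at these times. UBR2, a ubiquitin ligase that marks Rpn4, was at 0.14 and 0.09 at 0 min, -0.03 and -0.23 at 30 min and 1.07 and 1.28 at 60 min.

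Of the second kind, RTS3, a putative component of a phosphatase complex, stood at -0.07 and 0.01 at 0 min, 0.79 and 1.25 at 30 min and -1.33 and -1.38 at 60 min. TOS3, a kinase that activates Snf1, was at 0.22 and -0.24, then 0.45 and 0.42, then -0.85 and -1.48. MIP6, a putative RNA-binding protein, was at 0.17 and 0.25, then 0.82 and 0.92, then -0.94 and -0.68.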
